A study of Mus musculus with 2 samples.

Results

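The nuclear genome encodes most subunits of the mitochondrial respiratory chain and of ATP synthase, and the transcripts of these genes were measured in MEL cells, an immortalized line of mouse erythroleukemia cells. The members were all protein-coding genes whose GENCODE symbol begins with Nduf and a, b, c, s or v, with Uqcr, with Cox and a digit of 4 to 8, or with Atp5, together with Sdha, Sdhb, Sdhc and Sdhd; the complex I assembly factors named Ndufaf were left out. This rule found 86 genes in the annotation, of which 85 were in the tables, out of 43346 genes in all and 21474 protein-coding ones. By complex they were 36 genes of complex I, 4 of complex II, 8 of complex III, 20 of complex IV and 17 of complex V. Ndufa4 and Ndufa4l2 were counted with complex IV, where their products are known to sit, in spite of their names.

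Polyadenylated RNA of MEL cells was sequenced single-end in 2 libraries, which the labels call biological replicates 1 and 2 of a single group. The labels name no treatment, genotype or time, so the only contrast is replicate 1 over replicate 2, which are 2 samples of 1 leukemia line and give no test. All values are given per replicate or as mean ± SD with n = 2, and nothing says whether the replicates were grown or processed on different days. Replicate 1 held 67735380 and replicate 2 held 79923143 expected counts (reads per gene, with reads that match several places divided by a model); for a gene with 0 counts the upper limit (3 counts) is 4.43e-06% and 3.75e-06% of them, which covers counting error only. Of 10 erythroid marker genes, 9 were detected (TPM of at least 1 in both replicates), with Gata1 at 163 TPM in replicate 1 and 376 TPM in replicate 2, and Slc4a1 at 0.480 and 0.260 TPM was the exception. Of 17 markers of other cell types 2 were detected, the platelet lineage genes Pf4 (139 and 197 TPM) and Itga2b (24.1 and 42.8 TPM), while the striated muscle genes Ckm and Myh7 and the testis gene Tnp1 were at 0 TPM in both.

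The respiratory chain lies in the inner mitochondrial membrane. Complexes I and II pass electrons from NADH and succinate to ubiquinone, complex III hands them to cytochrome c, and complex IV passes them to oxygen. Complexes I, III and IV pump protons, and complex V uses the proton gradient to make ATP. Developing red cells also need mitochondria to make heme, and they lose these organelles when they mature. Several subunits of complex IV exist in a widely expressed form and in a form known from muscle, lung or testis, each from its own gene.

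Nearly every gene of the chain was transcribed in MEL cells. Of the 85 members 81 were detected, which is 95.3%, against 46.8% of all protein-coding genes. All 77 members without a known tissue restriction were detected, at 5.83 to 1896 TPM as the mean of both replicates (TPM, the share of transcripts scaled per length). The 4 members that were not detected are tissue forms of complex IV, namely Cox4i2, Cox7b2, Cox8b and Cox8c. The median member stood at 208 TPM, against 23.0 TPM for the median of the 10045 detected protein-coding genes, and 76 of the 85 members were above that median. Together the members took 2.18% of TPM in replicate 1 and 2.52% in replicate 2, and 1.18% and 1.43% of expected counts. Over the 81 detected members the log2 TPM of the replicates had a Pearson's r of 0.92 and a Spearman's rho of 0.86, as a description across genes that share both libraries. The same values were 0.94 and 0.93 over the 10045 detected protein-coding genes. Over the 77 members without tissue forms they were 0.89 and 0.84. The SD was under 20% of the mean for 33 of the 81.

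**Figure D1:**
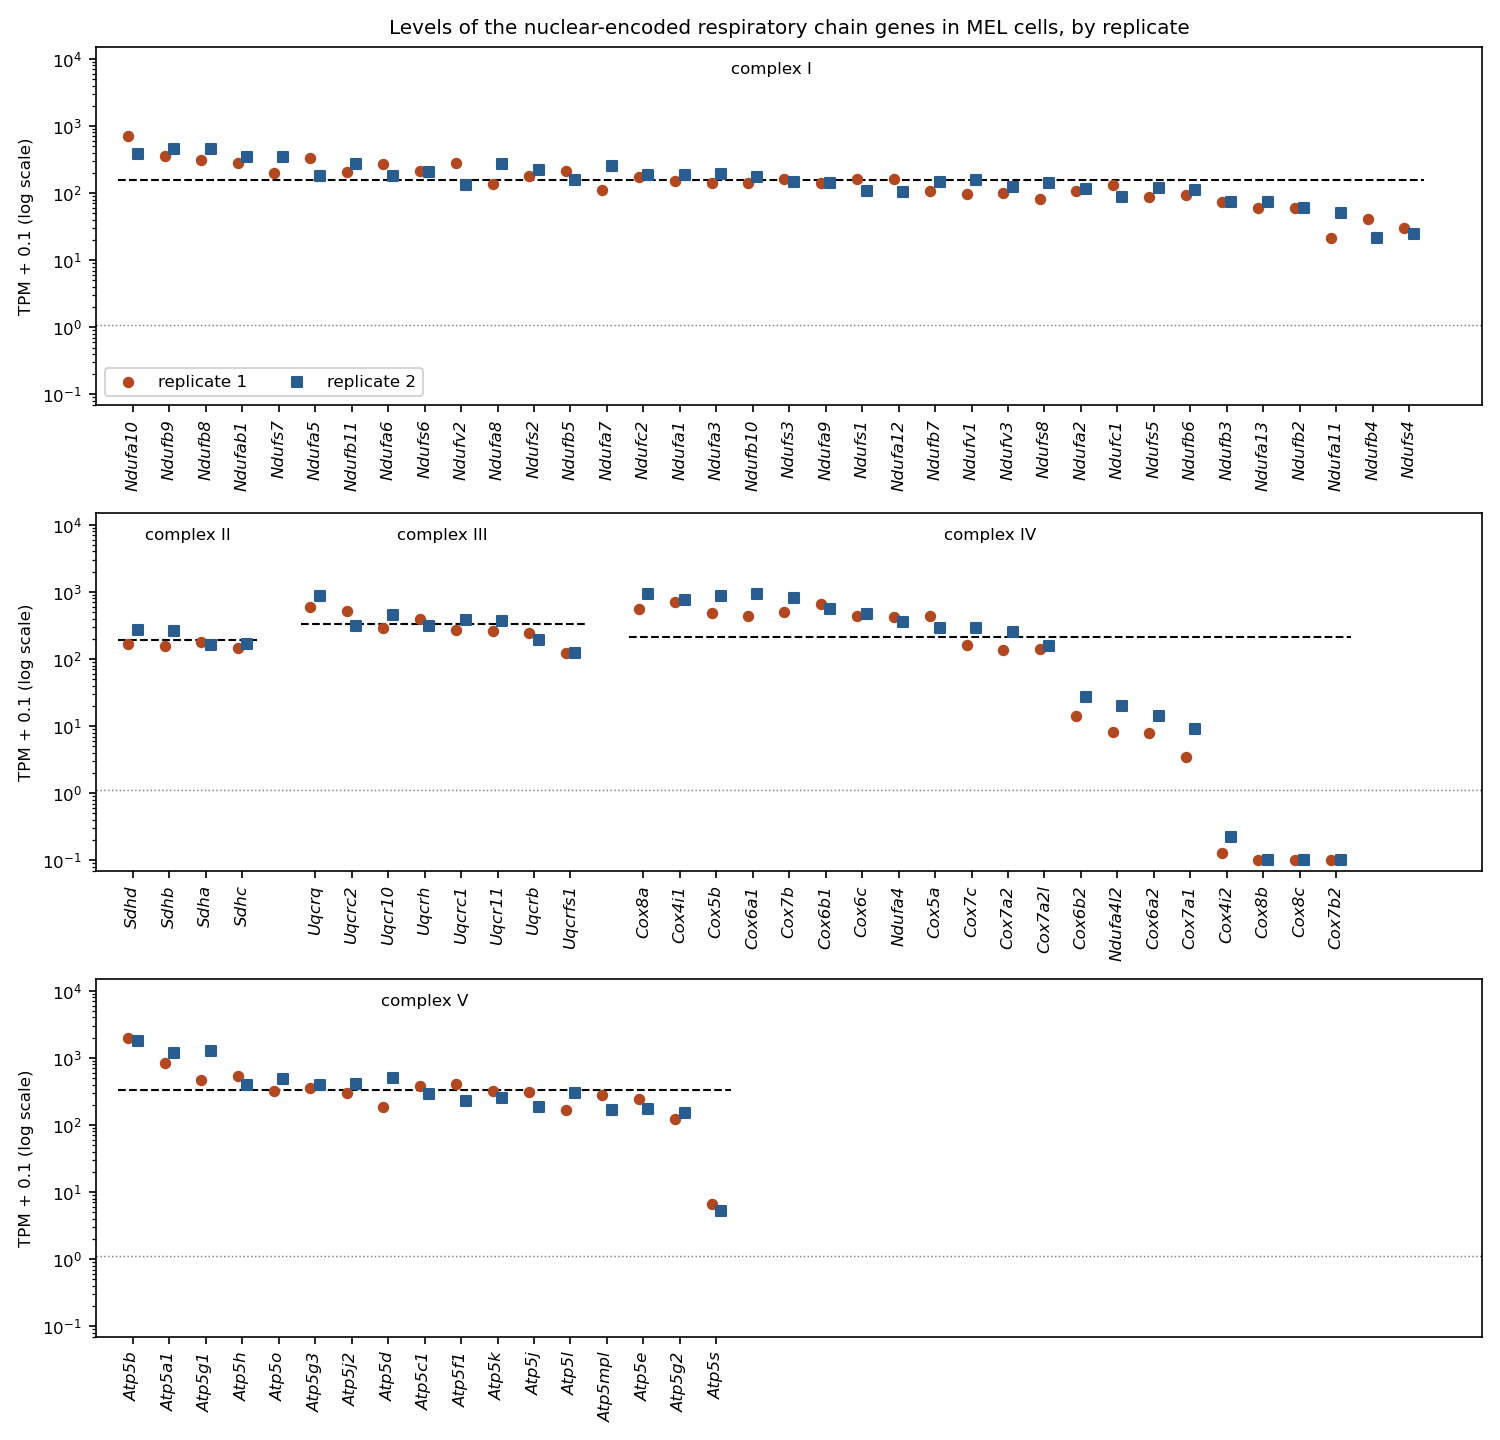
TPM + 0.1 on a log scale for each of the 85 members in replicate 1 (circles) and replicate 2 (squares), by complex and ordered by the mean; dashed lines mark the median of each complex and the dotted line the detection limit of 1 TPM. Atp5b is highest at 1982 and 1809 TPM, and the 8 tissue forms of complex IV stand apart from the other 12 members of that complex, 4 of them below the limit.

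Complex I, the NADH dehydrogenase, had a median over its 36 members of 143 TPM in replicate 1 and 152 TPM in replicate 2. The 7 core subunits, which carry the flavin and iron-sulfur clusters, had medians of 164 and 148 TPM, and the 29 accessory subunits 140 and 158 TPM. Among the core subunits Ndufs7, which carries an iron-sulfur cluster next to the quinone site, was highest by the mean, with 196 TPM in replicate 1 and 347 TPM in replicate 2, although Ndufv2 was higher in replicate 1 with 276 TPM. Ndufs8, another iron-sulfur subunit, was lowest by the mean, with 80.97 and 142 TPM, although Ndufs1 was lower in replicate 2 with 107 TPM. As means of the replicates the core subunits ran from 111 to 272 TPM. Both ends depended on the transcripts counted. With protein-coding transcripts alone Ndufs3 had 22.0 and 45.8 TPM, below Ndufs8 in both replicates. Ndufs7 then had 72.2 and 262 TPM, against 276 and 131.5 TPM for Ndufv2.

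The accessory subunits spread more widely. Ndufa10, an accessory subunit related to nucleoside kinases, had the highest mean in complex I, with 705 TPM in replicate 1 and 384 TPM in replicate 2 (544 ± 227, n = 2) and expected counts of 19679 and 20636. In replicate 2 Ndufb9 and Ndufb8 were above it, and with protein-coding transcripts alone Ndufa10 had 75.0 ± 6.75 TPM, rank 64 of the members. A single short transcript, Ndufa10-205, held 427 TPM of the gene's level in replicate 1 and 141 TPM in replicate 2. Ndufb9 had 361 and 454 TPM (407 ± 65.5), and Ndufb8 had 314 and 451 TPM (382 ± 96.6). All 3 are accessory subunits, which surround the catalytic core.

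At the lower end by the mean, Ndufs4, an accessory subunit whose loss in mice causes a Leigh-like brain disease, had 30.0 TPM in replicate 1 and 24.3 TPM in replicate 2 (27.1 ± 4.0). Ndufb4, a membrane arm subunit, had 40.8 and 20.96 TPM (30.9 ± 14.1), beside a pseudogene of the same coding sequence. The processed pseudogene Ndufb4c (chromosome 15, 73809507 to 73809896, minus strand, mm10, within an intron of Mroh5) matched the coding sequence of Ndufb4 (chromosome 16, minus strand) at 390 of 390 bases, and it was assigned 1839 and 4283 counts, against 1245 and 1093 for Ndufb4. The first 150 bases are shown because a read inside them fits both genes; no base is in capitals because none differs.
Ndufb4 and Ndufb4c: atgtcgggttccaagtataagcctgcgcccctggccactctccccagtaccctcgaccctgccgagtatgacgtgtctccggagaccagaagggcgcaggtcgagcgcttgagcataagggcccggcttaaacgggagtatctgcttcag
The TPM of Ndufb4 and Ndufb4c summed to 156 and 231, and their counts to 3084 and 5376. The TPM of the copy was scaled to its own 390 bases, while the protein-coding Ndufb4-201 has 971. The summed TPM is therefore not the level that Ndufb4 would have with these counts.

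Complex II, succinate dehydrogenase, is the only complex made of nuclear-encoded subunits alone, and its 4 genes were close to each other. Sdha, the flavin subunit, had 181 TPM in replicate 1 and 159 TPM in replicate 2 (170 ± 15.1), and Sdhb, the iron-sulfur subunit, had 159 and 259 TPM (209 ± 71.0). The membrane anchors Sdhc and Sdhd had 146 and 170 TPM (158 ± 17.0) and 167 and 272 TPM (219 ± 74.2). In replicate 1 the 4 levels lay between 146 and 181 TPM, and in replicate 2 Sdhb and Sdhd were above Sdha and Sdhc.

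Complex III, the cytochrome bc1 complex, had a median over 8 members of 279 TPM in replicate 1 and 339 TPM in replicate 2. Uqcrq, a small subunit, was highest with 591 and 856 TPM (724 ± 187). The core proteins Uqcrc2 and Uqcrc1 differed in direction between the replicates, with 518 and 307 TPM (412 ± 149) for Uqcrc2 and 268 and 375 TPM (321 ± 75.7) for Uqcrc1. Uqcr10, another small subunit, had 291 and 454 TPM (372 ± 115). The lowest were Uqcrb, with 246 and 193 TPM (219 ± 37.6), and Uqcrfs1, the Rieske iron-sulfur protein, with 123.6 and 123.5 TPM (124 ± 0.0566). Cyc1, the cytochrome c1 subunit that the naming rule leaves out, had 152 and 274 TPM.

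Complex IV, cytochrome c oxidase, has genes for widely expressed and for tissue forms of its subunits, and its members ran from 0 to 741 TPM as means of the replicates. The 12 members without tissue restriction had a median of 435 TPM in replicate 1 and 512 TPM in replicate 2, and the 8 tissue forms 1.71 and 4.50 TPM. Cox8a was highest by the mean, with 555 and 927 TPM (741 ± 263), Cox4i1 had 700 and 766 TPM (733 ± 46.8), and Cox5b had 485 and 870 TPM (678 ± 272). All 3 encode subunits that surround the mitochondrially encoded core. Lowest of the 12 were Cox7a2, with 137 and 250 TPM (194 ± 79.6), and Cox7a2l, with 139 and 155 TPM (147 ± 11.6), whose product is known to join complexes III and IV in supercomplexes. Cox7a2l also has a near-identical pseudogene, Gm6969, with 3212 and 4782 counts beside its own 6610 and 9445.

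Complex V, ATP synthase, held the genes with the highest levels. Its catalytic head is built of alpha and beta subunits around a central stalk. Atp5b, the beta subunit, had 1982 TPM in replicate 1 and 1809 TPM in replicate 2 (1896 ± 123), rank 41 among all protein-coding genes, and Atp5a1, the alpha subunit, had 841 and 1172 TPM (1006 ± 234). The central stalk genes Atp5c1, Atp5d and Atp5e had 378 and 289 TPM, 185 and 498 TPM, and 246 and 170 TPM. Atp5d was higher in replicate 2, and Atp5c1 and Atp5e were higher in replicate 1, so these partners of one stalk did not vary together between the libraries.

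The 4 peripheral stalk genes Atp5f1, Atp5h, Atp5j and Atp5o had medians of 366 TPM in replicate 1 and 314 TPM in replicate 2, and the 4 small membrane subunits Atp5j2, Atp5k, Atp5l and Atp5mpl 290 and 274 TPM. The lowest members of complex V were Atp5g2, with 124 and 151 TPM (137 ± 18.9), and Atp5s, with 6.51 and 5.14 TPM (5.83 ± 0.969). Atp5s encodes coupling factor B, which is not counted as a structural subunit of the enzyme. Atpif1, the inhibitor protein of ATP synthase, had 387 and 429 TPM, near the median of the complex it binds.

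By the median of the mean TPM the complexes stood in the order III (337 TPM), V (333 TPM), IV (211 TPM), II (189 TPM) and I (157 TPM). The difference between complexes III and V was smaller than the spread between the replicates, and in replicate 1 alone the order was V, III, II, IV and I. The place of complex IV depended on what was counted: it came last at 106 TPM with only protein-coding transcripts, and first at 376 TPM with the TPM of near-identical pseudogenes added. That TPM was scaled to the short lengths of the copies, such as 192 bases for Gm12338 and 342 for Gm6969. The first place therefore holds for this way of adding only, and sums of counts at the lengths of the members were not tried. The median of complex IV also includes the 8 tissue forms, and without them it was 530 TPM, the highest of the 5 complexes. Of all 85 members, 57 ranked within the top 1000 protein-coding genes by mean TPM, 19 of the 36 in complex I and 38 of the 49 in the other complexes.

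Mitochondrial DNA encodes the remaining subunits. The median TPM of its 7 complex I genes was 1454 in replicate 1 and 1404 in replicate 2, against 143 and 152 for the nuclear members of complex I. For complex IV the 3 mitochondrial genes had medians of 321 and 641 TPM, against 151 and 268 TPM for all 20 nuclear members but 435 and 512 TPM for the 12 without tissue restriction, so that the direction turned in replicate 1 with the members compared. mt-Co1 alone had 8019 and 4193 TPM. How fully polyA selection captures mitochondrial transcripts was not tested, so the values of both genomes are only set side by side.

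The tissue forms of complex IV were low or not detected, while their widely expressed partners were high in both replicates. Markers of striated muscle and testis were near 0 too, with Acta1 at 0.05 and 0.20 TPM and Prm1 at 0.05 and 0 TPM. Cox4i1 had 21943 and 31159 counts, against 1 and 5 counts for Cox4i2, the form known from lung, a ratio per length of 22035 (95% exact binomial interval 3954 to 870360, counting error only) in replicate 1 and 6162 (2640 to 18979) in replicate 2. Cox8a had 12806 and 27347 counts, while Cox8b, known from heart and skeletal muscle, and Cox8c, known from testis, had 0 in both. Against the floor of 3 counts per library, Cox8a was at least 2709-fold and 5786-fold higher than Cox8b, and at least 3681-fold and 7860-fold higher than Cox8c. Cox7b, with 497 and 814 TPM, was at least 3801-fold and 7953-fold higher than Cox7b2, a testis form with 0 counts. These bounds count all transcripts of Cox7b, of which the protein-coding ones held 28.2 and 61.8 TPM. With those alone the log2 ratio of this pair, on TPM + 0.1, was 8.71 in place of 12.6.

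The other tissue forms gave low but countable levels, and each was higher in replicate 2. Cox6b2, the testis partner of Cox6b1, had 13.9 TPM in replicate 1 and 27.4 TPM in replicate 2, against 665 and 563 TPM for Cox6b1, and so 2.05% and 4.65% of the pair. Cox6a2, the heart and muscle partner of Cox6a1, had 7.85 and 13.9 TPM, against 430 and 921 TPM, or 1.79% and 1.49% of the pair. Cox7a1, the muscle partner of Cox7a2, had 3.39 and 8.87 TPM, or 2.41% and 3.43%. Ndufa4l2, known as a hypoxia-inducible relative of Ndufa4, had 8.20 and 19.6 TPM, against 428 and 352 TPM, or 1.88% and 5.27%.

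On the log2 scale of TPM + 0.1, 11 of 13 pairs of related genes differed at least 2-fold in the same direction in both replicates. The pair of Cox6a1 and Cox6a2 had the ratio 5.90 ± 0.20 (SD, n = 2), that of Cox7a2 and Cox7a1 5.05 ± 0.35, that of Cox6b1 and Cox6b2 4.96 ± 0.86, and that of Ndufa4 and Ndufa4l2 4.92 ± 1.08. Outside the members, the somatic cytochrome c gene Cycs had 43.1 and 21.2 TPM and its testis form Cyct 0.430 and 0.250 TPM. Cox7a2 and Cox7a2l did not separate, with log2 ratios of -0.02 in replicate 1 and 0.69 in replicate 2. Of the 85 members, 27 share exon bases with a gene on the opposite strand and 5 with one on the same strand. Among the tissue forms Cox6a2 overlaps Itgad and Ndufa4l2 overlaps Shmt2 on the opposite strand, and since the use of strand is not given in the sources used here, their reads cannot be told apart from those genes. Fewer cells with a form and less RNA per cell cannot be told apart in these bulk samples.

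**Figure D2:**
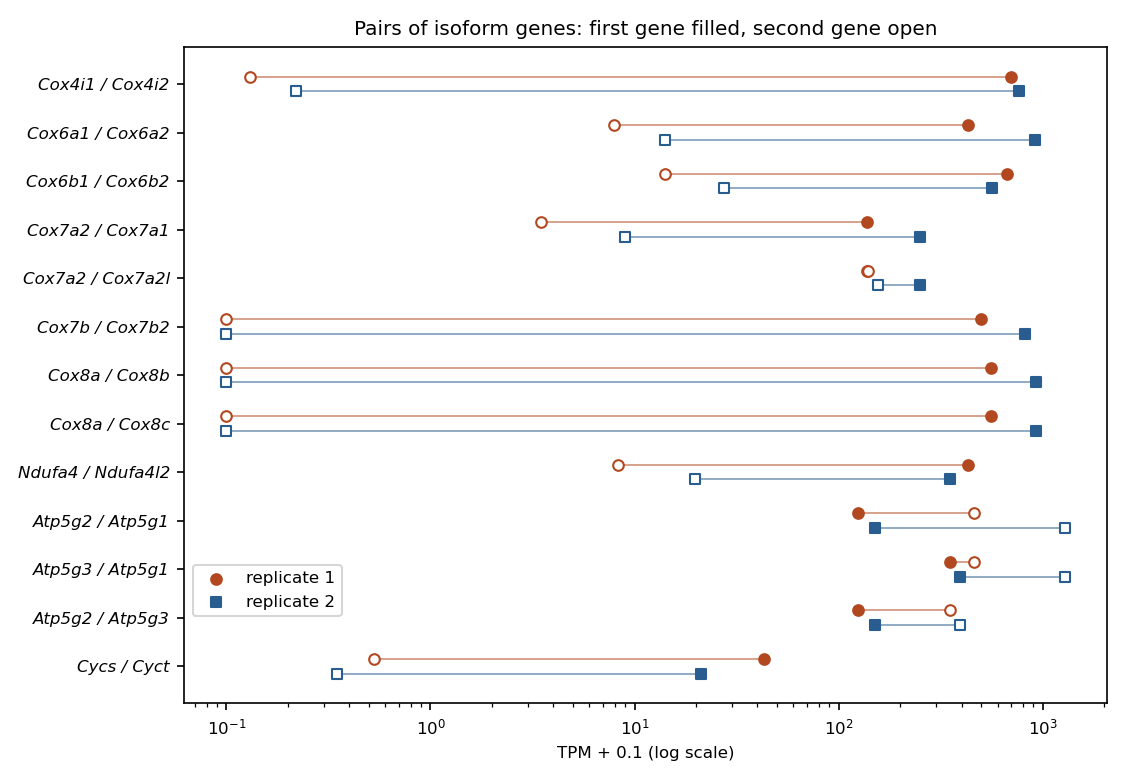
TPM + 0.1 on a log scale for 13 pairs of related genes, the first gene of a pair filled and the second open, with replicate 1 as circles above replicate 2 as squares. Cox7b2, Cox8b and Cox8c lie at 0.1, which stands for 0 TPM, and the 3 pairs of the c ring genes run in the opposite direction to the pairs of complex IV, with Atp5g1 highest.

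The c ring of ATP synthase, the rotor that protons turn, is encoded by Atp5g1, Atp5g2 and Atp5g3, whose products share the same mature protein and differ in the targeting peptide that is cut off. Atp5g1 had 461 TPM in replicate 1 and 1285 TPM in replicate 2, Atp5g2 had 124 and 151 TPM, and Atp5g3 had 352 and 394 TPM. Atp5g1 thus gave 49.2% and 70.2% of the summed TPM of the 3 genes, Atp5g3 37.6% and 21.5%, and Atp5g2 13.2% and 8.23%. The order was the same in both replicates, but the excess of Atp5g1 over Atp5g3 was 2-fold or more only in replicate 2, with log2 ratios of Atp5g3 over Atp5g1 of -0.39 and -1.71. The last 228 bases of the coding sequences, which encode the mature subunit and the stop codon, show how far reads can tell these genes apart, with capitals at each base where the 3 genes are not all the same.
Atp5g1: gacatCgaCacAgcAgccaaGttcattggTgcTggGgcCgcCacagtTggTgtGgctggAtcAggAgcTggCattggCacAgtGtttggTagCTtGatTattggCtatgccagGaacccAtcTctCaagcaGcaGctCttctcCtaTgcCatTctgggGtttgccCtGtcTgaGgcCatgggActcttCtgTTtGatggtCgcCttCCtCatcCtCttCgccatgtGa
Atp5g2: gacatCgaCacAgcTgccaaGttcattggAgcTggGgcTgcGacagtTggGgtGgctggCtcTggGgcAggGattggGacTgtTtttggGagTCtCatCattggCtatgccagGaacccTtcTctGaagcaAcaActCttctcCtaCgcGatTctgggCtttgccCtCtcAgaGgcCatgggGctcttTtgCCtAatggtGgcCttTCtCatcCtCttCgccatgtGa
Atp5g3: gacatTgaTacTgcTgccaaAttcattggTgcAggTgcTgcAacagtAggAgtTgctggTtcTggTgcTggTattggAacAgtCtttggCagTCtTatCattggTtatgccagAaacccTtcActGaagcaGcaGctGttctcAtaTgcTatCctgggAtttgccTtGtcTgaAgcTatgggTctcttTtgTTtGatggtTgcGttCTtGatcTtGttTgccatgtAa
The genes differed at 58 of these 228 bases, 52 of them the third base of a codon. Atp5g1 and Atp5g2 were 85.1% identical, Atp5g1 and Atp5g3 79.8%, and Atp5g2 and Atp5g3 78.5%, and the longest run without a difference was 21 bases. The 3 genes lie on chromosomes 11, 15 and 2, all on the minus strand.

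Atp5g2 cannot be ranked in this way once its pseudogene is considered. Gm10175, annotated as a transcribed processed pseudogene of 441 bases, shares its whole length with Atp5g2 in runs of 50 bases, and it was assigned 6876 counts in replicate 1 and 25597 in replicate 2, against 3855 and 6042 for Atp5g2. The TPM of Atp5g2 and Gm10175 summed to 398 and 949, against 352 and 394 for Atp5g3. With these sums the log2 ratio of Atp5g2 over Atp5g3 was 0.72 as the mean of the replicates, in place of -1.45 ± 0.08. The excess lay mostly in replicate 2, and in replicate 1 the sum was near the level of Atp5g3. Each TPM was scaled to the length of its own gene, so the sums are not levels that Atp5g2 would have with these counts.

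Copies of this kind touched several other members. Of the annotated pseudogenes in the tables, 56 share at least 1 run of 50 bases with 30 of the members, and all together they held 36868 and 55886 counts, a sum that equals 4.62% and 4.87% of the members' own counts. For 14 members a pseudogene shared at least 80% of its bases, and for 7 of these the copies held more than 10% of the summed counts in both replicates. In Cox7c, a small subunit of complex IV, the copies held 76.9% and 61.1%, chiefly Gm12338 with 9182 counts in replicate 1 and 7975 in replicate 2, against 3026 and 5104 for Cox7c itself. In Atp5l, a membrane subunit of ATP synthase, they held 64.6% and 33.9%, and in Ndufa12, an accessory subunit of complex I, 44.3% and 62.2%. In Ndufs5 they held 44.6% and 11.4%, and in Cox7a2l 32.7% and 33.6%. The levels of these 7 genes therefore depend on how the deposited counts divide reads between sequences that are nearly the same. The deposited posterior SD, the spread of a count under the model that divides reads, was at most 2.15 times the counting error over all members. Whether the model divided these reads correctly was not tested.

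**Figure D3:**
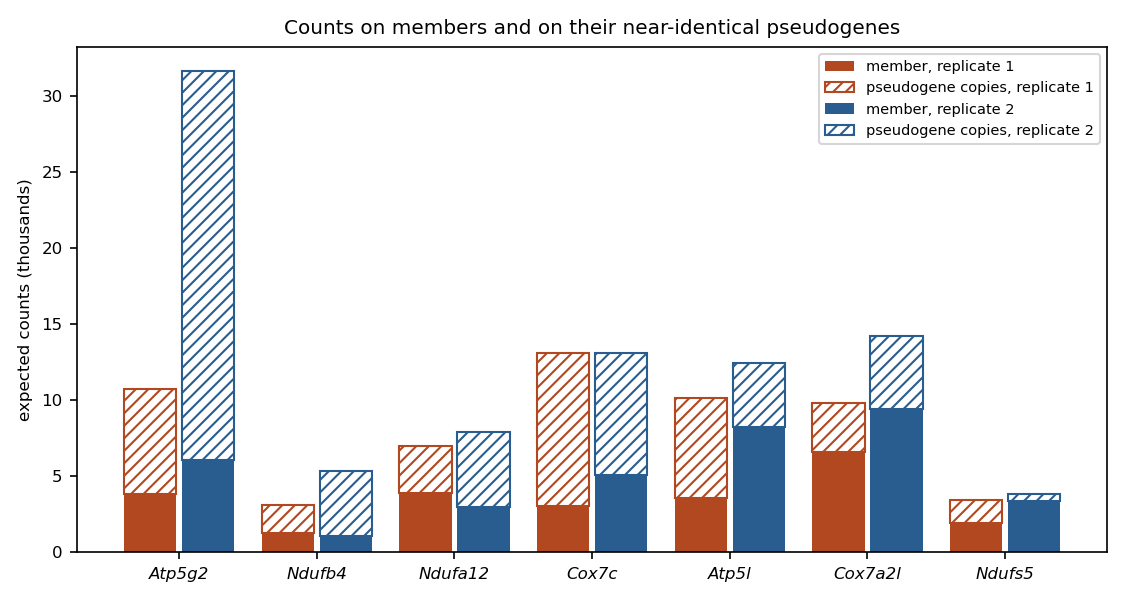
Expected counts (axis in units of 1000) on 7 members (solid) and on pseudogenes that share at least 80% of their bases with them (hatched), replicate 1 left and replicate 2 right. The pseudogenes hold 64.1% and 80.9% of the sum for Atp5g2, 59.6% and 79.7% for Ndufb4 and 76.9% and 61.1% for Cox7c.

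The replicates were compared to see how firmly each level is known. The log2 ratio of replicate 1 over replicate 2 was taken on rounded expected counts with TMM scaling for the 15251 genes whose counts summed to 20 or more, 81 members among them. At least 2-fold higher in replicate 1 were 0 members, against 12.3% of all tested genes, and at least 2-fold higher in replicate 2 were 8 members or 9.88%, against 8.08%. Over the 11838 tested protein-coding genes alone these shares were 9.33% and 6.77%. The median over members was -0.25, against -0.02 over all tested genes, and -0.12 with the GC trend removed; 32 members were higher in replicate 1 and 49 in replicate 2. The median absolute log2 ratio was 0.44 for the members and 0.59 for all tested genes. With the GC trend removed the order turned, to 0.29 for the members and 0.26 for all genes.

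The 8 members past 2-fold came from complexes I, IV and V. Atp5g1, the c ring gene, had the greatest excess in replicate 2, with 12166 counts in replicate 1 and 42861 in replicate 2 and a log2 ratio of -1.46 (exact binomial interval -1.49 to -1.43, counting error only). Atp5d, the delta subunit of the central stalk, had 7409 and 23612 counts and a ratio of -1.31. Cox6a1 had 10453 and 28588 counts (-1.09), and the tissue forms Cox7a1 with 50 and 167 counts (-1.37) and Ndufa4l2 with 346 and 1057 counts (-1.25) went the same way. The 3 complex I genes were Ndufa11 (-1.23), Ndufa7 (-1.14) and Ndufa8, which lay at the 2-fold limit with 134 TPM in replicate 1 and 270 TPM in replicate 2; all are accessory subunits. Of the 10 erythroid markers, 4 were also at least 2-fold higher in replicate 2 (Gata1, Epor, Hba-a1 and Hbb-bs) and 0 in replicate 1. Over all tested genes the shares were 8.08% and 12.3%. Tfrc went the other way, with 178 TPM in replicate 1 and 80.65 TPM in replicate 2 (log2 ratio 0.95). All 10 markers summed to 4563 TPM in replicate 1 and 6274 TPM in replicate 2, of which Car1 alone held 3757 and 4820 TPM, and their part in the members' differences was not tested.

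In the other direction no member reached 2-fold with TMM scaling of counts, while 1 did with ratios of TPM and 1 with the length trend removed, Ndufv2 in both cases, and 2 did with the GC trend removed. Ndufv2, which carries an iron-sulfur cluster of the NADH-oxidizing module, came nearest, with 12752 counts in replicate 1 and 8323 in replicate 2 and a log2 ratio of 0.98 (0.94 to 1.02). Ndufa5 followed with 0.84, Ndufs1, an iron-sulfur core subunit, with 0.81, Atp5f1, the b subunit of the peripheral stalk, with 0.79, and Ndufa12 with 0.74. Ndufv1, the flavin subunit that binds Ndufv2, had -0.32, but with the GC trend over all genes removed the values were 0.30 for Ndufv1 and 0.37 for Ndufv2.

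GC content moved with the replicate ratio. Over the 81 tested members the ratio had a Pearson's r of -0.60 with the mean GC content of a gene's transcripts, and over 15093 tested genes -0.56, as a description across genes of the same 2 libraries. Spearman's rho was -0.59 over the members and -0.75 over the 15093 genes. Of the 27 members with the lowest GC content (39.0% to 49.2%) 20 were higher in replicate 1, with a median log2 ratio of 0.33. Of the 27 with the highest GC content (53.6% to 60.8%) 4 were higher in replicate 1, with a median of -0.66. Once the trend over all genes was removed, 2 members were at least 2-fold higher in replicate 1, Atp5e (1.09) and Ndufa6 (1.00), against 4.61% of all tested genes, and 3 in replicate 2, Atp5g1 (-1.35), Cox7b (-1.20) and Atp5l (-1.15), against 4.13%. Atp5g1 was the only one of them among the original 8, while Atp5d came to -0.53 and Cox6a1 to -0.27. Whether GC content took part in these differences was not tested.

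**Figure D4:**
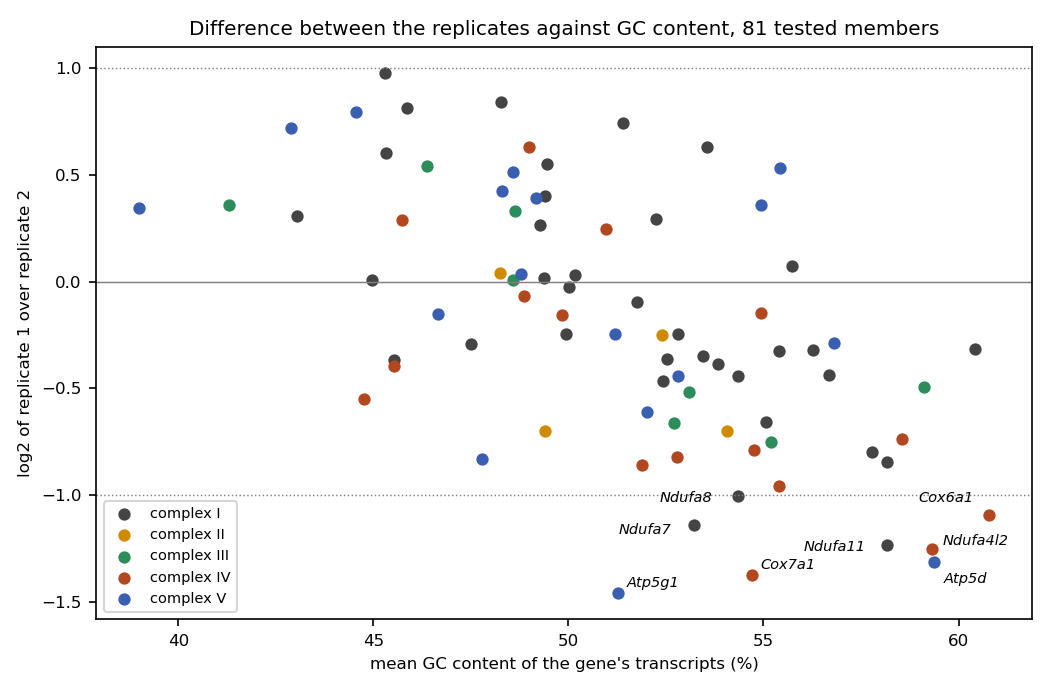
Log2 of replicate 1 over replicate 2 against the mean GC content of a gene's transcripts for 81 tested members, coloured by complex, with dotted lines at 2-fold and names for the 8 members past it. Members of low GC content lie mostly above 0 and those of high GC content mostly below, with r = -0.60.

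The deposited transcript values show which form of each gene the reads were assigned to. For the 81 detected members 329 transcripts were listed, and 25 members had a single one. The most abundant transcript took a median of 97.0% of the gene's TPM in replicate 1 and 95.5% in replicate 2, was the same in both for 67 members and was protein-coding in both for 68. Protein-coding transcripts held 79.5% and 82.5% of the summed TPM of the members and 86.9% and 89.3% of their expected counts. Processed transcripts, which have no open reading frame in the annotation, held 10.4% and 9.81% of TPM but 4.64% and 4.24% of counts.

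For 13 members the leading transcript was of another type in at least 1 replicate, and for 5 in both. Cox7b-202, a processed transcript of 180 bases, held 58.9% of the TPM of Cox7b in replicate 1 and 70.6% in replicate 2, but 26.3% and 35.1% of its counts. Ndufa10-205, of 248 bases, held 60.6% and 36.6% of the TPM of Ndufa10 and 20.4% and 8.18% of its counts. Such short transcripts weigh more in TPM than in counts, because TPM divides by length. With protein-coding transcripts alone, Cox7b had 44.98 ± 23.7 TPM in place of 655 ± 224.

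Atp5f1-203, annotated as a target of nonsense-mediated decay and 1311 bases long, held 90.7% of the TPM of Atp5f1 in replicate 1 and 67.3% in replicate 2. Ndufa5-204, a processed transcript, held 54.3% and 61.7% of Ndufa5. In Ndufab1, the mitochondrial acyl carrier protein, the lead was with different retained-intron forms, Ndufab1-205 at 54.8% in replicate 1 and Ndufab1-208 at 67.3% in replicate 2. These shares come from a model that divides reads among overlapping forms of 1 gene.

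In 14 members the leading transcript was not the same in the replicates. In Ndufc1 it was the retained-intron form Ndufc1-203 in replicate 1, at 77.9%, and the protein-coding Ndufc1-204 in replicate 2, at 70.8%. In Atp5j, coupling factor 6, it was Atp5j-208, a retained-intron form, at 77.7%, and Atp5j-201, protein-coding, at 44.5%. Ndufs7, Ndufs3, Ndufb8 and Ndufb4 likewise had a form of another type first in replicate 1 and a protein-coding one first in replicate 2, while Cox7c and Cox6b2 had the reverse. In Ndufc2, Ndufs1, Atp5c1, Atp5d and Atp5h the change was between protein-coding forms, as in Atp5d, where Atp5d-201 held 84.1% in replicate 1 and Atp5d-202 held 56.3% in replicate 2. By expected counts in place of TPM the lead changed in 10 members, and Ndufb4, Ndufb8, Cox6b2 and Atp5h kept the same leading transcript.

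**Figure D5:**
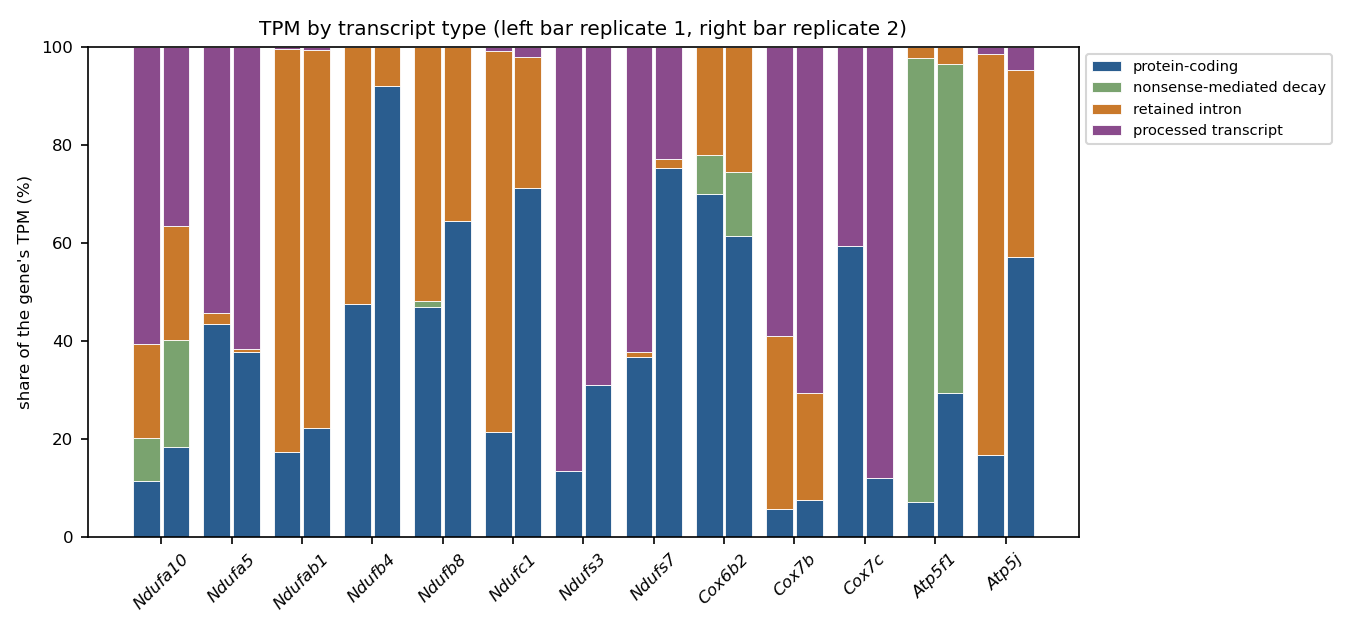
Share of each gene's TPM (percent) by annotated transcript type for the 13 members whose leading transcript was not protein-coding in at least 1 replicate, replicate 1 left and replicate 2 right. Protein-coding forms hold 5.67% and 7.59% in Cox7b and 7.16% and 29.2% in Atp5f1, while in Ndufb4 they hold 47.5% and 92.0%.

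Assembly factors, which build the complexes but are not part of them, were lower than the subunits. Of 51 listed assembly factors 50 were detected, with a median over the list of 26.3 TPM in replicate 1 and 25.6 TPM in replicate 2; the exception was Pet117, at 0.05 and 0 TPM. Cox17, the copper chaperone of complex IV, was highest by the mean, with 170 and 204 TPM. Of the 50 tested, 2 were at least 2-fold higher in replicate 1 and 1 in replicate 2, against 12.3% and 8.08% of all tested genes. These were Cox20, with 100 TPM in replicate 1 and 20.2 TPM in replicate 2 (log2 ratio 2.24), Ndufaf4, with 70.3 and 52.5 TPM (1.02), and Sco2, with 8.60 and 25.6 TPM (-1.57). For Ndufaf4 the call rests on scaled counts (5503 and 3493 before scaling), and its TPM differed by less than 2-fold.

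Among 12 listed regulators of mitochondrial genes 11 were detected. The factors that bind promoters of respiratory genes, Nrf1, Gabpa, Yy1 and Esrra, had 33.5 and 42.8 TPM, 60.0 and 21.6 TPM, 67.7 and 51.2 TPM, and 13.1 and 24.1 TPM. The coactivator Ppargc1a, known for inducing mitochondrial genes in brown fat and muscle, was at 0.06 and 0.04 TPM (7 and 9 counts), while its relative Pprc1 had 68.05 and 106 TPM. Tfam, which packages mitochondrial DNA, had 156 and 74.0 TPM. Gabpa overlaps Atp5j on the opposite strand, so reads of this pair share exon bases.

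Promoter sequences of 67 of the 85 members were in the RefSeq table (GRCm38.p6, 250 bases before to 50 after the start), and 6 motifs were searched on both strands. The NRF1 core GCGCANGCG, nearly a palindrome so that both strands can match at 1 place, was in 19 of the 67 (28.4%), against 15.8% of the promoters of 7964 other detected protein-coding genes and 6.47% of all 27025 genes of the table. The YY1 motif AANATGGCG was in 8 (11.9%), against 6.38% and 2.51%, and the ERR motif TCAAGGTCA in 2 (2.99%), Sdhd and Atp5g3, against 0.264% and 0.407%. The ETS motif CCGGAAGT was in 5 (7.46%), against 9.91% and 4.0%. The GC box GGGCGG was in 27 (40.3%), against 67.4% and 35.9%, and CCAAT in 29 (43.3%), against 39.9% and 37.9%. None of the 6 was found in 10 of the 67 windows, which says only that these letters are not in those windows.

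The 200 bases before the start are shown for the members with 3 NRF1 matches before it, for Atp5b, the highest member, and for Cox8b, which had 0 counts; capitals mark matches to any of the 6 motifs.
Cox6a1 (chr5:115348959-115349158, minus strand): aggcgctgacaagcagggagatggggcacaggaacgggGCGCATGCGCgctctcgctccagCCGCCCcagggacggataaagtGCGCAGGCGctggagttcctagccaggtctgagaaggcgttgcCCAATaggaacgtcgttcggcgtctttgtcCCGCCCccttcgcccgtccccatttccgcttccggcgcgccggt
Sdha (chr13:74350241-74350440, minus strand): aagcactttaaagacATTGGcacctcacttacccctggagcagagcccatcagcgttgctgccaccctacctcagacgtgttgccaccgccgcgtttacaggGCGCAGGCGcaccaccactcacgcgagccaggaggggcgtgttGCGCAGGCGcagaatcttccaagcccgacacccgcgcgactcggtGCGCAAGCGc
Ndufb4 (chr16:37654369-37654568, minus strand): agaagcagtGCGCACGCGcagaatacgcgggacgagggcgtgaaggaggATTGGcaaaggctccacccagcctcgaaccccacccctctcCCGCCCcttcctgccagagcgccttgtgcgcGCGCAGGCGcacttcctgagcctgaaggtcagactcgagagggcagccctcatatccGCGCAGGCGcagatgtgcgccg
Atp5b (chr10:128083107-128083306, plus strand): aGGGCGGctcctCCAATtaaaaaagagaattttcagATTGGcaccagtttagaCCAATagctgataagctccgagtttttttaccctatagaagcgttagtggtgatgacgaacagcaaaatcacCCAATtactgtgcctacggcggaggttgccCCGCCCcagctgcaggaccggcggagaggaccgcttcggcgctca
Cox8b (chr7:140900447-140900646, minus strand): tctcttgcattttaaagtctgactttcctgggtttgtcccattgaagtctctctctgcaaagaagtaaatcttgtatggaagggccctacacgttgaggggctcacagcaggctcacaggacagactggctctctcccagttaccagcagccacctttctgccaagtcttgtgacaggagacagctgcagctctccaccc
The matches of Sdha start at 98, 55 and 10 bases before the start, and those of Ndufb4 at 191, 79 and 22. Cox6a1 has overlapping matches on both strands at 162 and 161 bases before the start and a further match at 117. GC content of the shown stretches was 67.0% for Cox6a1 and Ndufb4, 64.0% for Sdha, 52.0% for Atp5b and 51.5% for Cox8b. These matches describe the letters of the windows, and no binding was measured.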

How the data were processed

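Polyadenylated RNA of MEL cells was measured in 2 libraries of 1 group. Per the text file that accompanies each sample, the authors used mm10 and GENCODE M4. No source used here names the aligner, the quantifier or the strand setting. The deposited expected counts, TPM and FPKM are the authors' estimates per gene and transcript, and the deposited score columns hold the posterior SD of a count and bounds of TPM. The 2 libraries held 67735380 and 79923143 expected counts. Gene symbols, biotypes and coordinates were looked up in GENCODE M21 (also mm10) by unversioned identifier, which found 42462 of 43346 genes.

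The members and lists were chosen with earlier results of these data known. Named are the 3 highest and 2 lowest members of each complex, all isoform pairs, members past 2-fold, the 5 most different in each direction, members whose leading transcript differed between replicates or was not protein-coding, and listed pathway genes; pseudogenes and further members were named after their values were seen. The listed symbol Dmac2l had no match among the gene symbols used, so no value was taken under that name. Ratios of rounded expected counts used TMM in edgeR 4.0.16 (prior count 0.5) for scaling alone. Alternatives were DESeq2 1.42.0 size factors, library totals, other units, minimums and pseudocounts, a lowess trend (fraction 0.3) and each replicate left out; those on protein-coding transcripts, naming and pseudogenes were added after the data were seen. Ratio and motif steps were tested on simulated data. Other software was matplotlib 3.10.9, statsmodels 0.14.6, scipy 1.17.1, pandas 2.3.3 and numpy 2.4.6 under Python 3.11.15, and R 4.3.3. Fold limits, detection (TPM of at least 1) and floors (3 counts) describe libraries, and no p-value was computed.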

Additional observations from a re-analysis of the deposited data

Results flagged for a closer look

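Pseudogenes that share runs of 50 bases with members lie outside the members, and there were no control samples to set them against, so they are listed because their counts were far above the 3 counts that a count of 0 allows. The copy of Atp5g2, Gm10175, had 6876 counts in replicate 1 and 25597 in replicate 2. Gm12338, a copy of Cox7c, had 9182 and 7975, and Gm10221, a copy of Atp5l, had 6560 and 4206. For Ndufa12 the copy Gm15920 had 3105 and 4927, for Cox7a2l the copy Gm6969 had 3212 and 4782, for Ndufb4 the copy Ndufb4c had 1839 and 4283, and for Ndufs5 the copy BC002163 had 1544 and 437. In each case the copy held at least 10% of the counts of copy and member together in both replicates. Whether these reads came from the copies or from the members was not tested.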

How the results depend on the processing

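The number of detected members (81) and of pairs past 2-fold (11) stayed within 1.5 times of these values under every alternative run, at 77 to 81 and 9 to 12. Median TPM moved by more than the spread between replicates with FPKM, to 111 in complex I, 135 in II, 239 in III and 234 in V. With TPM rescaled over annotated genes it likewise moved to 165 in I and 348 in V, and with protein-coding transcripts to 114 in I and 106 in IV. With the TPM of near-identical pseudogenes added, scaled to their own lengths, it moved to 173 in I, 376 in IV and 373 in V. Leaving out a replicate gave 143 to 152 in complex I, 163 to 215 in II, 279 to 339 in III, 151 to 268 in IV and 299 to 318 in V. Of 104 pair values under alternatives 100 kept their sign. With the TPM of pseudogenes added, Atp5g2 over Atp5g3 turned to 0.72 as the mean of the replicates, mostly through replicate 2. The other 3 were of Cox7a2 over Cox7a2l, which had no common sign to begin with. The median replicate ratio was -0.37 with library totals, which shifted all genes to -0.14, so that relative to all genes it stayed at -0.23; it was -0.12 with the GC trend removed, with 5 members past 2-fold in place of 8, -0.18 with the length trend removed and -0.19 with pseudogenes added, and the cause was not tested. The median share of the leading transcript was 93.6% by expected counts and 95.5% to 97.0% in single replicates, where 7 to 11 members, in place of 13, were led by a transcript of another type. CCAAT was in 28.4% of the shorter windows of 150 bases. No member had a posterior SD above 3 times the counting error, so that leaving such members out changed nothing. No paired analysis was possible because the labels give 1 group.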
